A study of Auxenochlorella pyrenoidosa with 12 samples.

Results

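The transcripts described here were present in untreated Chlorella pyrenoidosa and at the start of its exposure to potassium peroxymonosulfate (PMS). They were several times more abundant at every later sampling day. They are 200 contigs of a de novo transcriptome assembly, taken from the 30814 contigs in the table. Contigs were eligible when all 4 control and day 0 libraries held at least 1 FPKM (mapped fragments scaled to the length of a contig and to the size of its library) and the control and day 0 means differed by less than 1 on the log2(FPKM + 1) scale, which left 11713. For each of them the higher of the control and day 0 means was subtracted from the lowest of the means of days 3, 6, 9 and 12, on that scale. The 200 contigs with the largest value of this difference, called the margin here, were taken as members.

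The alga was exposed to 8.49 mg/L PMS, 0.5 of its median effective concentration (EC50), and whole-cell RNA was sequenced on day 0 and after 3, 6, 9 and 12 days, with 2 libraries each time. They are set beside an untreated control at 0 mg/L with 2 libraries, whose title can be read as dose 0 or day 0. With no control of the later days among the libraries analysed here, PMS exposure and culture age cannot be told apart. Separate cultures behind the 2 libraries of a group are not documented in the labels, and every p-value therefore rests on a spread that may be technical. Total FPKM per library lay between 487140 and 603105. Read numbers are unknown.

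Chlorella is a unicellular freshwater green alga that grows by photosynthesis in its chloroplast. PMS is a strong oxidant used in water treatment, and photosynthetic cells meet oxidants with enzymes such as catalase, superoxide dismutase and peroxidases. Cells of an ageing batch culture also change their transcripts as nutrients and light per cell decline. Contigs come without gene names in the table, so the members are described by their levels and courses, and no role can be given to any of them.

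The margin of the members ran from 1.43 to 4.63, with a median of 1.78. It was above 3 in 10 members, above 2 in 58 and under 2 in 142. The cut-off fell within a continuous range. The last 3 members had margins of 1.427, 1.426 and 1.426, and the next 3 contigs 1.426, 1.424 and 1.420. Over all eligible contigs the median margin was -1.32, and 421 of them had a margin above 1. These values chose the members and are given as a description.

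The rule selects for a step between day 0 and day 3 that is kept to day 12. The levels, ratios and counts that follow therefore describe the members chosen. The median member stood at 6.40 and 6.05 FPKM in the control, 6.00 and 5.29 at day 0, 32.9 and 32.6 at day 3, 36.1 and 35.9 at day 6, 34.6 and 38.6 at day 9 and 40.1 and 39.8 FPKM on day 12. The eligible contigs had medians of 5.46 and 5.57 FPKM on day 12 and 8.66 and 8.68 FPKM in the control. Eligibility set a minimum in the early libraries alone, which by itself favours a higher early median. Relative to the control mean, the level of the median member was 5.21 times as high after 3 days, 5.85 times after 6, 6.22 times after 9 and 6.35 times after 12. At least 10 times the control level was reached by 27 members after 3 days, 41 after 6, 42 after 9 and 51 after 12. In RNA of whole cultures, more RNA per cell and more cells that make a transcript cannot be told apart.

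**Figure D1:**
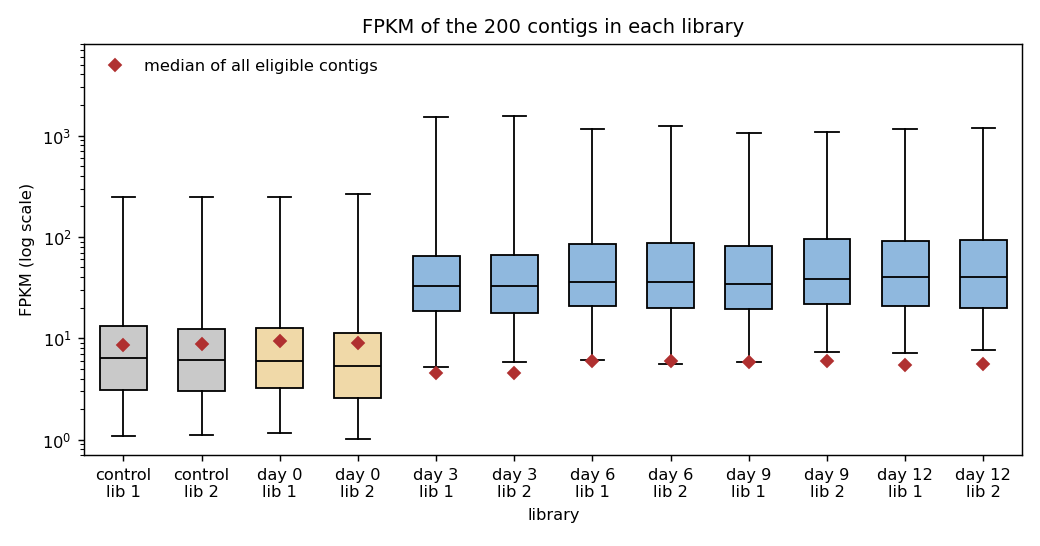
FPKM of the 200 members in each of the 12 libraries on a log scale. Boxes span the quartiles with the median as a line, whiskers run to the lowest and highest member, and diamonds mark the median of the 11713 eligible contigs. The medians of the members lie between 5.29 and 6.40 FPKM in the 4 early libraries and between 32.6 and 40.1 FPKM in the 8 later ones.

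As a group the members made up a small part of the early transcriptome and a larger part of the late one, which follows from their choice. They held 0.480 ± 0.0203% of the total FPKM of a library in the control, 0.416 ± 0.00955% at day 0, 2.79 ± 0.234% at day 3, 3.45 ± 0.0827% at day 6, 3.60 ± 0.382% at day 9 and 4.24 ± 0.00293% at day 12 (SD, n = 2 each). Their mean summed FPKM was 20766 on day 12 against 2636 in the control, a ratio of 7.88. The 10 most abundant members held 34.9% to 41.5% of the members' sum in every library, so the sum leans on a few contigs. Among the 1000 most abundant contigs of a library, 62 and 63 were members on day 12, against 6 and 6 in the control. Among the 100 most abundant, 4 and 4 were members on day 12, against 0 and 0 in the control.

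**Figure D2:**
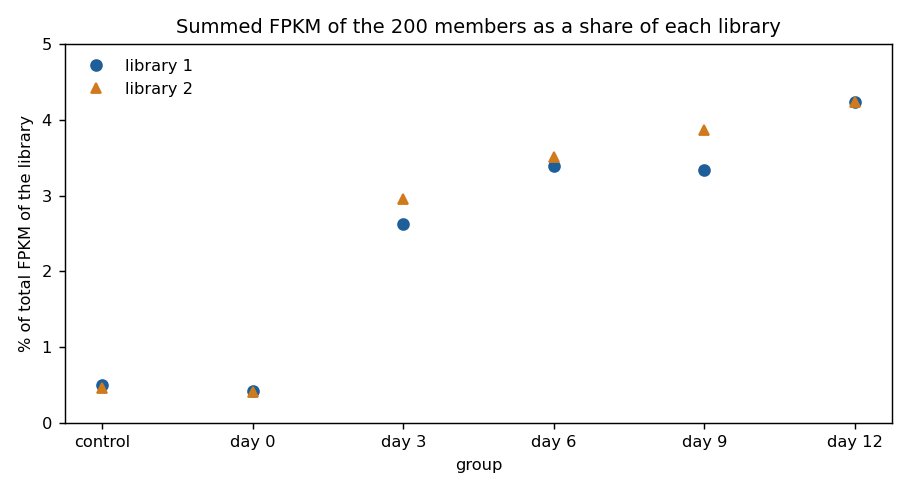
Summed FPKM of the 200 members as a percent of the total FPKM of each library, by group, with 1 point per library. The share lies at 0.409% to 0.494% in the control and day 0 libraries and at 2.62% to 4.24% in the later ones, and the day 9 libraries lie furthest apart, at 3.33% and 3.87%.

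The libraries of a group gave close values for the members. The median absolute difference between the 2 libraries, on the log2(FPKM + 1) scale, was 0.096 in the control and 0.16 at the start of exposure. After 3, 6, 9 and 12 days it was 0.14, 0.079, 0.21 and 0.065. On day 9 library 2 was the higher one for 144 members and library 1 for 56, and the median member stood at -0.15 in the log2 ratio of library 1 over library 2. The ratio was -0.022 over the eligible contigs and -0.033 over the members when the libraries were rescaled by their median ratio. On day 9 library 1 lay closer to the day 6 mean for 106 members, and library 2 closer to the day 12 mean for 117. In all 200 members the lowest of the 8 later libraries was above the highest of the 4 early ones, as it was in 19.0% of the 17653 contigs tested below. The rule all but fixes this for the members, so nothing is read from it. The ratio of those 2 libraries had a median of 3.42, was at least 10 in 8 members and was under 2 in 1, at 1.84.

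In 199 of the 200 members the largest difference between the 2 libraries of any group was below the margin. The members were chosen for a large margin, which favours such a count, so nothing is read from it. The exception, at margin rank 56, was picked out after its values were seen. It had 3.07 and 4.42 FPKM in the control, 2.38 and 1.26 at day 0, 116 and 22.4 at day 3, 53.8 and 17.4 at day 6, 35.4 and 8.88 at day 9 and 30.9 and 37.1 FPKM on day 12. Library 1 was well above library 2 on days 3, 6 and 9 but not on day 12.

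The largest margin belonged to TRINITY_DN16841_c0_g1_i1_1. It had 1.22 and 1.24 FPKM in the control, 1.25 and 1.10 at day 0, 54.1 and 54.5 at day 3, 104 and 97.9 at day 6, 292 and 227 at day 9 and 293 and 296 FPKM on day 12. The 4 early libraries were alike, and from day 3 on both libraries of a day lay above those of the day before. Its mean was 294 ± 2.39 FPKM on day 12 and 1.23 ± 0.0167 FPKM in the control (SD, n = 2 each), a ratio of 239. After day 3 it rose further, by 2.42 on the log2(FPKM + 1) scale from day 3 to day 12 (SE 0.11, limma adjusted p = 4.70e-07).

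The member with the most FPKM on day 12 was TRINITY_DN7040_c0_g1_i1_4. It had 97.6 and 94.0 FPKM in the control, 67.0 and 77.8 at day 0, 837 and 922 at day 3, 1048 and 1146 at day 6, 959 and 1093 at day 9 and 1166 and 1193 FPKM on day 12. Most of its difference from the early libraries was thus present on day 3. From day 3 to day 12 the change was 0.42 on the log2 scale (SE 0.10, limma adjusted p = 0.00680), and with rescaled libraries 0.12 (limma adjusted p = 0.412), so this later rise depended on the scaling.

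The 2 largest falls from day 3 to day 12 were those of TRINITY_DN497_c1_g1_i1_1 and TRINITY_DN9362_c2_g1_i1_1. The first had 1.34 and 1.41 FPKM in the control, 3.12 and 3.79 at day 0, 267 and 227 at day 3, 139 and 135 at day 6, 91.7 and 80.3 at day 9 and 87.8 and 91.8 FPKM on day 12. Between day 3 and day 12 it fell by 1.45 on the log2 scale (SE 0.11, limma adjusted p = 8.46e-06), yet its day 12 mean was still 65.3 times that of the control. The second had 4.87 and 4.35 FPKM in the control, 2.51 and 2.30 at day 0, 42.9 and 49.3 at day 3, 24.5 and 27.6 at day 6, 16.1 and 19.5 at day 9 and 19.0 and 18.6 FPKM on day 12. It fell by 1.25 over the same interval (SE 0.12, limma adjusted p = 3.50e-05) to a mean 4.08 times that of the control. In both, days 9 and 12 were close together, so that most of the fall lay between days 3 and 9.

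**Figure D3:**
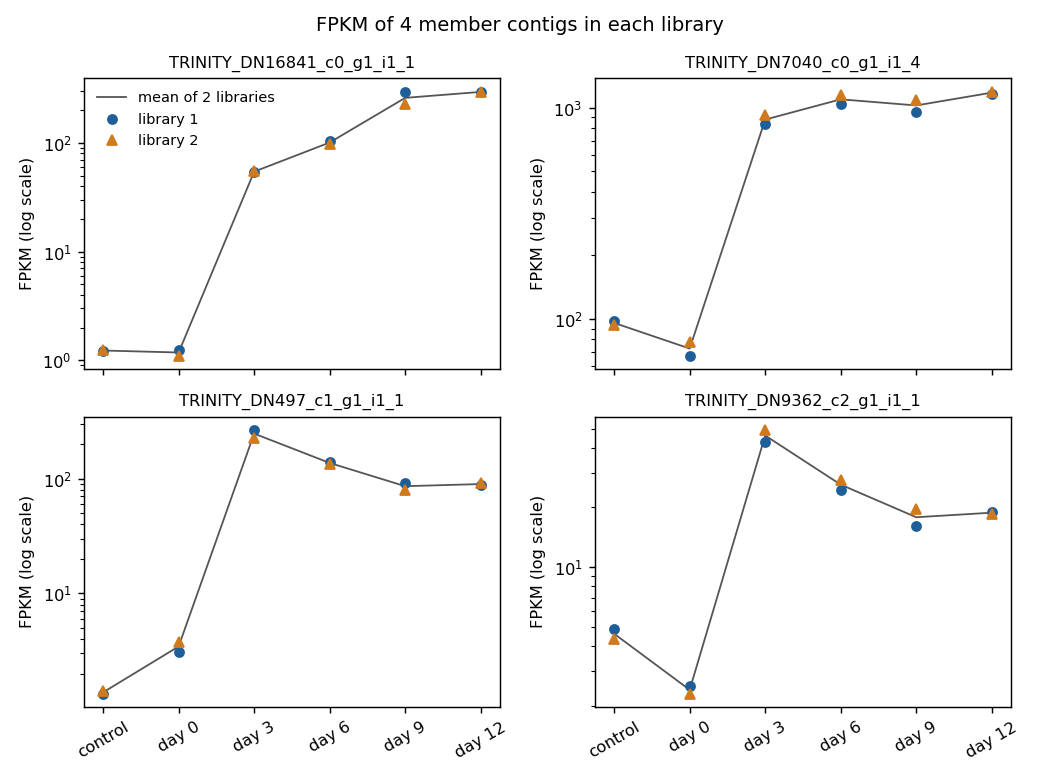
FPKM of 4 members in each library on log axes, by group, with circles for library 1, triangles for library 2 and a line through the group means. The upper pair kept or raised the level of day 3, with 294 and 1179 FPKM on average on day 12, and the lower pair came down after day 3 to 89.8 and 18.8 FPKM, all above the control.

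Members further down the order showed the same step at smaller size. The member at margin rank 50 had 17.1 and 15.5 FPKM in the control, 12.3 and 12.0 at day 0, 70.3 and 76.8 at day 3, 124 and 131 at day 6, 116 and 109.9 at day 9 and 108 and 118 FPKM on day 12. At rank 100 the levels were 3.94 and 3.28 FPKM in the control, 2.71 and 2.54 at day 0, 15.3 and 14.4 at day 3, 16.2 and 17.5 at day 6, 16.9 and 20.7 at day 9 and 17.7 and 18.0 FPKM on day 12. Rank 150 had 1.61 and 1.84 FPKM in the control, 3.32 and 1.66 at day 0 and 7.57 and 10.4 at day 3. It then had 11.7 and 9.96 at day 6, 10.2 and 13.8 at day 9 and 19.4 and 10.7 FPKM on day 12. Its libraries of day 0 and of day 12 lay far apart. The member at rank 200 had 53.0 and 56.0 FPKM in the control, 51.2 and 43.4 at day 0, 189.8 and 167 at day 3, 197 and 189.8 at day 6, 158 and 138 at day 9 and 145 and 159.9 FPKM on day 12. Low and high levels both occurred among the members shown. Across the 200 members, which are not independent and share libraries, the margin had a Pearson r of 0.048 and a Spearman rho of 0.088 with the early level. That level, the higher of the control and day 0 means, is itself subtracted in the margin. The margin also chose the members, so nothing is read from these coefficients.

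Most members were modestly expressed in the early libraries. Their mean over the 4 early libraries ranged from 1.20 to 249.6 FPKM with a median of 6.03 FPKM, where the eligible contigs had a median of 9.04 FPKM. It was under 5 FPKM in 88 members (44.0%, against 30.8% of the eligible contigs) and at least 20 FPKM in 29 (14.5%, against 25.6%). Day 0 lay above the control in 86 members and below it in 114, with a median difference of -0.085 on the log2 scale and a range of -0.96 to 0.96. The rule bounds this difference and counts against a higher day 0, so these values describe the choice.

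After day 3 the members took different courses. Day 3 gave the highest of the 4 later means in 53 members, day 6 in 60, day 9 in 19 and day 12 in 68. Day 3 also gave the lowest in 98, day 6 in 28, day 9 in 30 and day 12 in 44. As shares, the highest mean was on day 3 in 26.5% of the members, against 25.3% of all tested contigs, on day 6 in 30% against 23.5%, on day 9 in 9.5% against 19.5%, and on day 12 in 34.0% against 31.6%. The lowest was on day 3 in 49.0% against 50.7%. In 45 members (22.5%) the mean was higher at each later sampling day than at the one before, as it was in 15.4% of all tested contigs. In 12 members (6.0%, against 7.76% of all tested contigs) the mean was lower at each. The later means lay within 1 on the log2 scale in 146 members (73.0%, against 53.2% of all tested contigs). They lay within 0.5 in 69 (34.5% against 19.0%) and spread over more than 2 in 13 (6.5% against 13.7%). The rule uses the lowest of these means, so these counts are not independent of it. The flattest member, at margin rank 96 and picked out for that after its values were seen, had 18.6 and 16.0 FPKM in the control, 10.4 and 9.70 at day 0, 53.9 and 78.4 at day 3, 57.9 and 68.8 at day 6, 54.0 and 74.4 at day 9 and 63.6 and 61.5 FPKM on day 12. Its day means after day 3 were level, although the libraries of days 3, 6 and 9 were further apart than the means.

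Contrasts between later days were tested with limma over all 17653 contigs whose mean reached 1 FPKM, and called at a Benjamini-Hochberg adjusted p under 0.05. All 200 members were among these contigs, since the rule itself keeps their mean above that level. The rule used the later days only through their lowest mean, so it does not set the direction of these contrasts, though it used the same libraries. From day 3 to day 6, 74 members rose and 30 fell, while 96 were not called. Over all tested contigs 31.2% rose and 14.4% fell, so the 37.0% and 15.0% of the members were near the background. Over the eligible contigs that were tested the shares were 33.9% and 19.3%. The median change of the members was 0.18 on the log2 scale, against 0.23 over all tested contigs. With libraries rescaled by their median ratio it was -0.093, against 0.038 over all contigs, so its sign depended on the scaling.

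From day 6 to day 12, 44 members rose and 31 fell, 22.0% and 15.5% of them, with 17.0% and 11.9% over all tested contigs. Over the eligible contigs that were tested the shares were 10.7% and 16.3%. The median rise among the called members was 1.58-fold and the median fall 1.44-fold. The counts of members fell when any 1 library of day 6 or day 12 was left out, which left that day with 1 library. The shares of all tested contigs called in those fits are not given here, so the drop is not read as particular to the members. The calls that remained were all among those of the full fit, and no called member changed sign. Leaving out library 1 of day 6 left 18 rising and 11 falling, and leaving out its library 2 left 22 and 16. With library 1 of day 12 left out they were 19 and 12, and with its library 2 left out 20 and 15. In the step from day 3 to day 6 the number falling was 18 when library 1 of day 6 was omitted.

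Over the whole interval from day 3 to day 12, 86 members rose, 35 fell and 79 were not called. The shares of 43.0% and 17.5% were again close to the 38.1% and 17.9% over all tested contigs. Of the 11388 eligible contigs that were tested 32.1% rose and 25.8% fell. As deposited, the members thus rose more often and fell less often than the contigs they were drawn from. That difference was not tested, and rescaled shares of the eligible contigs are not given here. The balance of rises and falls, and how it compared with all contigs, depended on how libraries were scaled. Rescaled, falls of members outnumbered rises from day 3 to day 12, while over all contigs rises outnumbered falls. With libraries rescaled by their median ratio, which moved the median change of all contigs from day 3 to day 12 by -0.21 and from day 3 to day 6 by -0.19, 61 members rose and 74 fell from day 3 to day 12, beside 32.5% and 25.3% of all contigs. From day 3 to day 6 the rescaled numbers were 43 rising and 62 falling, beside 25.4% and 22.3%, and from day 6 to day 12 they were 43 and 32, beside 17.3% and 12.0%. The 35 falls from day 3 to day 12 and 61 of the 86 rises were called in the same direction under both scalings.

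**Figure D4:**
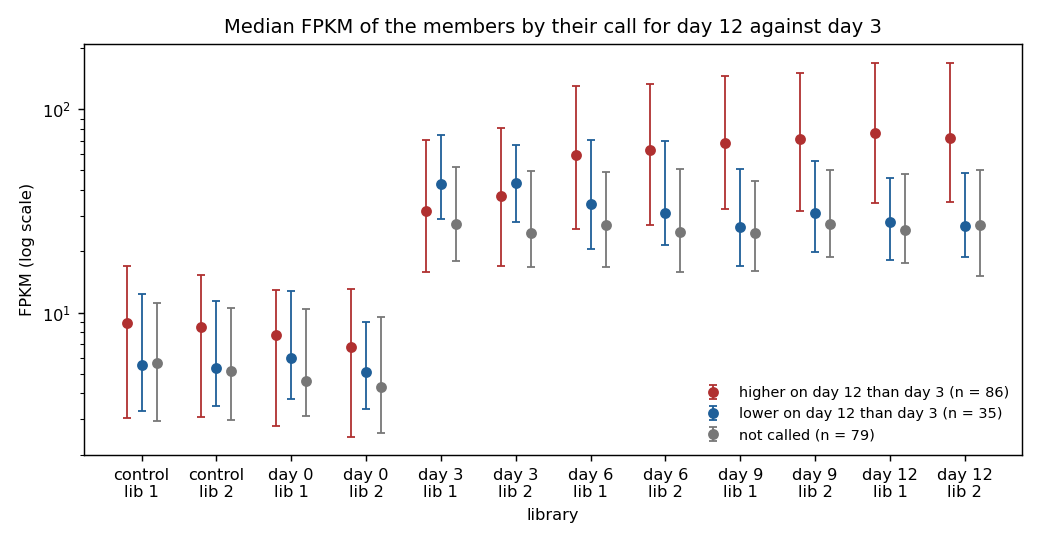
Median FPKM of the members in each library on a log scale, with bars for the quartiles, split by whether limma called them higher (86), lower (35) or neither (79) on day 12 against day 3. The split uses the values of days 3 and 12, so the separation on those days is given by it. The means of day 6 and day 9 are not part of that contrast, though their spread enters the fit. On day 6 and day 9 the first set lies between 59.5 and 71.1 FPKM and the second between 26.4 and 34.3 FPKM. The first set is also the higher one in the control, at 8.90 and 8.49 FPKM against 5.54 and 5.34 FPKM.

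The members that rose after day 3 had, at the median, 8.90 and 8.49 FPKM in the control, 31.5 and 37.6 at day 3, 59.5 and 62.8 at day 6 and 76.8 and 72.2 FPKM on day 12. Those that fell had 5.54 and 5.34 FPKM in the control, 42.9 and 43.1 at day 3, 34.3 and 30.8 at day 6 and 27.9 and 26.6 FPKM on day 12. Those not called had 5.62 and 5.18 FPKM in the control, 27.4 and 24.6 at day 3, 26.9 and 25.04 at day 6 and 25.5 and 26.9 FPKM on day 12. On day 3 the falling set was the highest of the 3, and on day 12 the rising set, which was also the highest in the control. Of the 86 rising members 56 had their highest mean on day 12, and of the 35 falling ones 27 had it on day 3. The sets were split on days 3 and 12, which favours this order and these peak days, so nothing is read from them.

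Single members show how far the courses diverged. The member at margin rank 190 had 2.43 and 2.19 FPKM in the control, 3.90 and 3.69 at day 0, 13.3 and 10.9 at day 3, 13.3 and 12.0 at day 6, 92.6 and 96.4 at day 9 and 532 and 545 FPKM on day 12. It reached a plateau on days 3 and 6 and then climbed again. The change from day 6 to day 12 was 5.31 on the log2 scale (SE 0.10, limma adjusted p = 7.07e-08), the largest among the members in either direction and any of the 3 contrasts except its own change of 5.37 from day 3 to day 12.

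The member at margin rank 3 made its second step earlier. It had 13.7 and 12.2 FPKM in the control, 12.6 and 12.3 at day 0, 199 and 201 at day 3, 1154 and 1145 at day 6, 833 and 763 at day 9 and 1011 and 919.9 FPKM on day 12. It rose by 2.52 on the log2 scale from day 3 to day 6 (SE 0.08, limma adjusted p = 9.07e-08), the largest rise of that step among the members. At rank 147 the levels were 2.75 and 3.05 FPKM in the control, 3.36 and 3.57 at day 0, 12.2 and 11.9 at day 3, 68.1 and 66.5 at day 6, 72.9 and 73.1 at day 9 and 56.9 and 56.2 FPKM on day 12. All libraries from day 6 on lay far above those of day 3, with a rise of 2.38 from day 3 to day 6 (SE 0.08, limma adjusted p = 8.53e-08).

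The largest fall from day 3 to day 6 was at margin rank 4. This member had 6.45 and 5.78 FPKM in the control, 6.48 and 5.23 at day 0, 269 and 263 at day 3, 104 and 101 at day 6, 75.9 and 97.0 at day 9 and 119.5 and 126 FPKM on day 12. Its day 3 libraries were the highest by far. It fell by 1.37 on the log2 scale from day 3 to day 6 (SE 0.13, limma adjusted p = 3.17e-05). A dip and return was seen at rank 177, with 1.12 and 1.60 FPKM in the control, 1.72 and 1.61 at day 0, 14.4 and 14.9 at day 3, 6.94 and 5.96 at day 6, 14.5 and 16.1 at day 9 and 30.5 and 30.1 FPKM on day 12. It fell by 1.07 from day 3 to day 6 (SE 0.12, limma adjusted p = 0.000127) and rose by 2.07 from day 6 to day 12 (SE 0.12, limma adjusted p = 1.91e-05). Its day 6 libraries stayed above its early ones, which held 1.12 to 1.72 FPKM.

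The largest fall from day 6 to day 12 was at margin rank 192, which had 12.7 and 12.7 FPKM in the control, 14.2 and 11.5 at day 0, 64.5 and 50.6 at day 3, 74.4 and 70.5 at day 6, 43.1 and 36.3 at day 9 and 35.4 and 37.3 FPKM on day 12. Day 6 was its highest day, and the change from day 6 to day 12 was -0.98 on the log2 scale (SE 0.14, limma adjusted p = 0.00178). The next, at rank 19, was an abundant member with 69.5 and 74.0 FPKM in the control, 84.9 and 102 at day 0, 717 and 645 at day 3, 984 and 988 at day 6, 759 and 573 at day 9 and 564 and 559.9 FPKM on day 12. It too was highest on day 6, with a change of -0.81 from there to day 12 (SE 0.14, limma adjusted p = 0.00389).

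**Figure D5:**
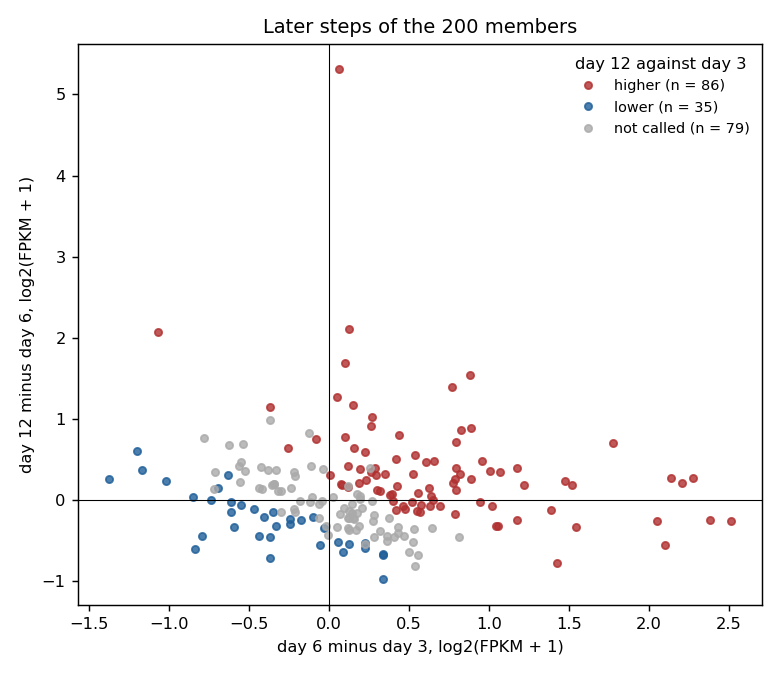
Change from day 6 to day 12 against change from day 3 to day 6 for the 200 members, as differences of mean log2(FPKM + 1), coloured by the call for day 12 against day 3. The points lie on all sides of 0, and 1 member stands apart at 5.31 on the vertical axis.

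Taking both steps together, 16 members rose at each, 4 fell at each, 16 rose and then fell, 9 fell and then rose, and 66 were called at neither. Of all tested contigs 5.25% rose at each, 1.48% fell at each, 5.64% rose and then fell, 3.46% fell and then rose, and 41.3% were called at neither, against 8.0%, 2.0%, 8.0%, 4.5% and 33.0% of the members. Another 42 (21.0%) rose from day 3 to day 6 and were not called afterwards, against 20.3% of all tested contigs. A further 17 (8.5%) fell and were not called afterwards, against 9.41%. The remaining 30 were called from day 6 to day 12 alone, 19 rising and 11 falling. These were 9.5% and 5.5%, against 8.33% and 4.75% of all tested contigs.

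The contigs next in order, at margin ranks 201 to 400, had the same step at smaller size. From day 3 to day 12, 86 of the 200 members and 58 of these 200 contigs rose, and 35 and 51 fell. The median change over that interval was 0.15 on the log2 scale in the members, -0.040 in the next 200, 0.089 in the 11388 eligible contigs that were tested and 0.34 over all tested contigs. With rescaled libraries the sign of the members' median turned, to -0.14, with 0.13 over all contigs. The difference between these sets was not tested, because both were chosen from the same values. On day 12 the next 200 made up 3.21% and 3.24% of the total FPKM, against 0.867% and 0.810% in the control.

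The names that the assembler gave to the contigs were not used by the rule. Contig names from the Trinity assembler carry a number after DN. Here contigs with the same DN number and the same last number of the name were taken as 1 group. The members came from 198 such groups, with 2 groups holding 2 members each. The c number that follows the DN number was not used, and it differed between the members of both pairs. In 1 of these pairs the members were at ranks 4 and 116, and both had their highest level on day 3, at 269 and 263 FPKM and at 55.3 and 56.1 FPKM. In the other pair, at ranks 135 and 158, the first was highest on day 9, at 20.1 and 21.8 FPKM, and the second on day 12, at 48.2 and 49.0 FPKM. In 48 of the groups the table also held contigs that are not members, 114 in all. Of these, 81 were eligible, with margins from -3.40 to 1.27 and a median of -0.82, and 19 of them (23.5%) were above 0, against 14.6% of all eligible contigs. Whether the contigs of a group share sequence cannot be checked here. The sources used here do not say how any shared fragments were divided, so levels within a group are uncertain.

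Each name also ends in a number from 1 to 4 that the sources used here leave unexplained. The members carried number 1 in 43 cases, 2 in 57, 3 in 58 and 4 in 42. That is 21.5%, 28.5%, 29.0% and 21.0%, against 21.4%, 27.1%, 27.2% and 24.2% of the eligible contigs. By the choice of the members, all 4 sets were higher late than early. Their median on day 12 was 33.3 and 37.1 FPKM for number 1, 32.9 and 30.1 FPKM for 2, 40.7 and 41.4 FPKM for 3 and 54.3 and 56.0 FPKM for 4. In the control it was 5.77 and 5.50 FPKM for number 1, 4.46 and 4.96 FPKM for 2, 6.91 and 7.45 FPKM for 3 and 10.8 and 10.0 FPKM for 4. From day 3 to day 12, 12 members rose and 12 fell under number 1, 28 and 7 under number 2, 22 and 10 under number 3, and 24 and 6 under number 4. Under number 1 that was 27.9% rising and 27.9% falling, against 13.7% and 35.0% of the 3395 tested contigs with that number. Under number 2 it was 49.1% and 12.3%, against 45.0% and 16.4% of 4571. Number 3 had 37.9% and 17.2%, against 37.3% and 15.5% of 4569, and number 4 had 57.1% and 14.3%, against 48.9% and 9.95% of 5118. The differences among the 4 sets were not tested.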

How the data were processed

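RNA of whole cells was sequenced from an Illumina TruSeq library kit, per the labels' protocols. The authors deposited FPKM for 30814 contigs in 12 libraries, under Trinity names. Their assembler settings, aligner and abundance program (not given in the sources used here) could affect levels of contigs that share sequence. Every column belongs to an analysed library. Because FPKM is relative to the library, abundant contigs shift all others.

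Members and contrasts were chosen with earlier results of these data known. Values were analysed as log2(FPKM + 1), which understates changes of low contigs. Contrasts used limma 3.58.1 in R 4.3.3 (group means of all 12 libraries, 6 residual degrees of freedom, intensity trend), on the 17653 contigs averaging 1 FPKM or more. FPKM are not counts, so no count model was used. Summaries and figures used Python 3.11.15. Contigs named by ID were the largest margin, the highest day 12 level and the 2 largest called falls from day 3 to day 12. Others are given by margin rank, at ranks 50, 100, 150 and 200 and among the 5 largest changes of each contrast. Ranks 56 and 96 were added after their values were seen. No 2 libraries of a group shared an identical value above 0. The rescaled day 9 ratio was added after seeing the data. Other alternatives are in the closing section.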

Additional observations from a re-analysis of the deposited data

How the results depend on the processing

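The rule took 179 of the 200 members with a pseudocount of 0.1, 172 with rescaled libraries, 173 and 170 from library 1 or library 2 of each group alone, and 177 to 199 when 1 library was left out. With a minimum of 5 FPKM in the early libraries it took 98, since low contigs are then not eligible. The median margin was 1.92 with a pseudocount of 0.1, 2.14 with rescaled libraries, and 1.74 to 1.81 when 1 library was left out.

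Rescaling gave 43 rises and 62 falls for day 6 against day 3, and 74 falls for day 12 against day 3. From day 6 to day 12, 28 rose without an intensity trend and 51 fell in a fit of the 4 libraries alone. Leaving out 1 library gave 55 to 77 rises and 18 to 36 falls for day 6 against day 3, 18 to 49 and 11 to 40 for day 12 against day 6, and 74 to 89 and 27 to 37 for day 12 against day 3. A group reduced to 1 library was assumed to vary like the others. The other alternatives kept these counts within 1.5 times. Except for rescaling, the shares of all tested contigs called under the settings of this section are not given. Changes of the counts are therefore not read as particular to the members. Rescaling also ended the later rise of TRINITY_DN7040_c0_g1_i1_4, as given above.

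With the replicate block there were 73 rises and 27 falls for day 6 against day 3, 40 and 26 for day 12 against day 6, and 85 and 33 for day 12 against day 3. The correlation of same-numbered libraries ran from -0.19 to 0.41 over 15 pairs of groups. It was over 0.1 in the 3 pairs among days 3, 6 and 9 and in none of the others, so the numbers were not taken to pair the libraries across the study, though those 3 days' libraries of 1 number deviated together. With 2 libraries a group the spread is estimated from few values, and the unknown read depth gives no counting error.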

Other observations

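Over the whole table, the contigs carrying each appended number were at 1 FPKM or more most often in 1 particular library. For number 1 this was day 3 library 1, with 81.2% of its 5193 contigs, and control library 2 came next with 64.8%. For number 2 it was day 12 library 2, with 80.1% of 8302 contigs, followed by day 12 library 1 with 68.2%. For number 3 it was day 6 library 1, with 75.2% of 6723 contigs, followed by day 9 library 2 with 73.2%. For number 4 it was day 12 library 1, with 82.0% of 10596 contigs, followed by day 12 library 2 with 62.9%. Among the 43 members with number 1, the median log2 ratio of day 3 library 1 to day 3 library 2 was 0.069.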
